A study of Mus musculus with 6 samples.

Results

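The let-7 family and its close relative miR-98 were described here across embryonic mouse cardiomyocyte (EMCM) cultures, as the deposited miRNA-Seq table lists them. The members were taken by name: every row that begins with let-7 or has the base name miR-98, with every arm, copy number and asterisk. This gave 21 of the 689 miRNA names in the table, of which 9 were main strands and 12 were passenger strands, marked with an asterisk. EMCMs came from wild type Swiss Webster embryos at stage E16.5 according to the labels, while the study's methods name CD1 mice. They were grown on flexible, collagen-coated plates. The labels give 3 static cultures and 3 cultures stretched cyclically by 16% at 1 Hz for 24 hours, while the study's methods give more cultures per group. Each value below is the authors' mean abundance over the cultures, so it has no error. The authors' own comparison of stretched with static cultures was not used here, and values of single samples were not analysed, so nothing below says how a member responded to stretch.

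A miRNA is cut from a hairpin precursor as a short duplex of 2 strands. One of them, the main strand, is usually loaded into an Argonaute protein, and the other, the passenger strand, is usually degraded. Bases 2 to 8 of the loaded strand, the seed, choose the target mRNAs. The let-7 family is a deeply conserved group whose main strands share 1 seed, whose maturation is blocked by the RNA-binding protein Lin28, and which is known for holding back cell growth and for rising as tissues, the heart included, mature.

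The main strands are shown first because their likeness decides how far the reads can tell them apart. They are RefSeq mature sequences on GRCm38.p6, written 5′ to 3′ in the order of their abundance, with the seed in capitals.
let-7f: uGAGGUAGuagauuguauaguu
let-7i: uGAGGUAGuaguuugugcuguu
let-7a: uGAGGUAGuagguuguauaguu
let-7c: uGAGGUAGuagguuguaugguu
let-7g: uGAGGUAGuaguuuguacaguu
let-7e: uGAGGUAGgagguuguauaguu
let-7d: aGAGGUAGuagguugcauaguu
miR-98: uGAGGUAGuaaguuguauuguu
let-7b: uGAGGUAGuagguugugugguu

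All 9 main strands had 22 bases and the seed GAGGUAG, and 14 of the 22 positions held the same base in all of them. Only let-7d began with A, and the other 8 began with U. The G and C content ran from 31.8% in let-7f and miR-98 to 45.5% in let-7b. Among 36 pairs of main strands, the number of differing bases ran from 1 to 6, with a median of 3. With positions counted from the 5′ end and the first-named strand's base written first, let-7a differed from let-7c by A19G and from let-7e by U9G. The single change from let-7f to let-7a was A12G, and from let-7c to let-7b it was A17G. The pair with the most differences was let-7i and let-7d, with 6. A run of at least 18 bases, the length of the shortest tag kept, was shared by 1 pair, let-7a and let-7c, whose first 18 bases were identical. A tag ending there does not tell these members apart, and a single miscalled base can move a full-length read between the 4 pairs that differ by 1 base.

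**Figure D1:**
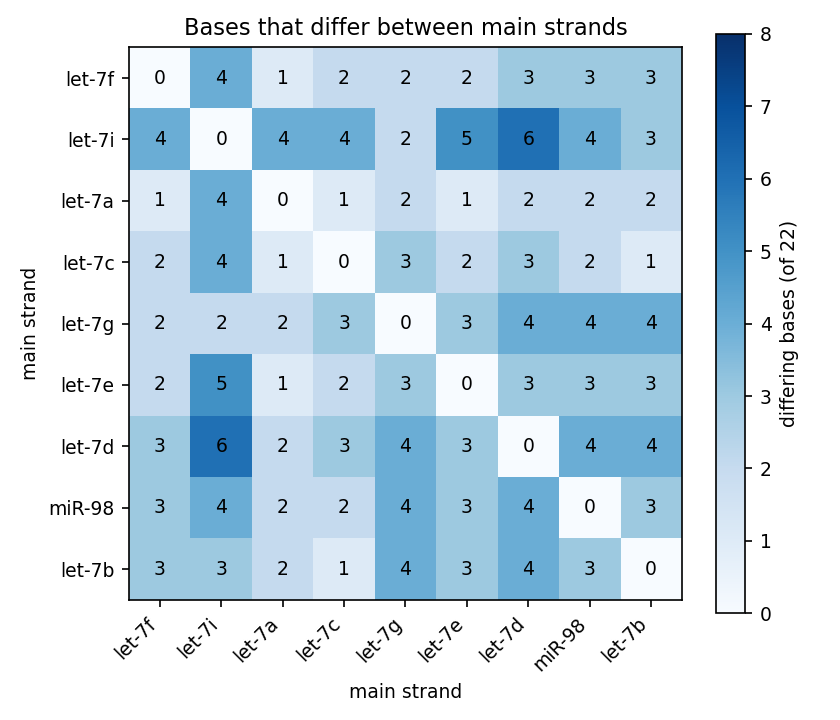
Number of bases that differ between each pair of the 9 main strands, with the strands on both axes in order of abundance and the number of differing bases (of 22) written in each cell and given by the shade. let-7a was 1 base from let-7f, let-7c and let-7e, while let-7i and let-7d were 6 bases apart.

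The family held 5.27% of the miRNA reads, of which the main strands held 5.14% and the passenger strands 0.131%. Levels are given as the share of miRNA reads or as RPM (reads per 1000000 miRNA reads), both from the authors' mean on a log2 scale. They were not divided by length, since 1 read covers a whole miRNA. Among single names in the table, 5 held more than the whole family: miR-22, miR-143, miR-99b, miR-27b and miR-127. The most abundant of these was miR-22, with 20.5%.

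Most of the family's reads belonged to let-7f and let-7i. let-7f held 1.84% of the miRNA reads and let-7i held 1.81%, at ranks 11 and 12 of the table. Their levels were 1.02-fold apart, and together they held 69.3% of the family's reads. let-7f is made from 2 hairpins and let-7i from 1. let-7a followed with 0.463% at rank 25 and let-7c with 0.381% at rank 29, which brought these 4 members to 85.3% of the family. There was thus a 3.91-fold step between let-7i and let-7a, larger than any other step between neighbouring main strands.

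The remaining main strands were let-7g with 0.213%, let-7e with 0.159% and let-7d with 0.139%. miR-98, the member that carries a number of its own but the same seed, held 0.0927%. let-7b was the least abundant main strand with 0.0368%, which was 50.0-fold under let-7f. All 9 main strands were among the 100 most abundant names. Steps between neighbours outside the largest one ran from the 1.02-fold of let-7f and let-7i to the 2.52-fold of miR-98 and let-7b. Without values per sample, no spread can be set against these steps, so the order of close neighbours was not tested.

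**Figure D2:**
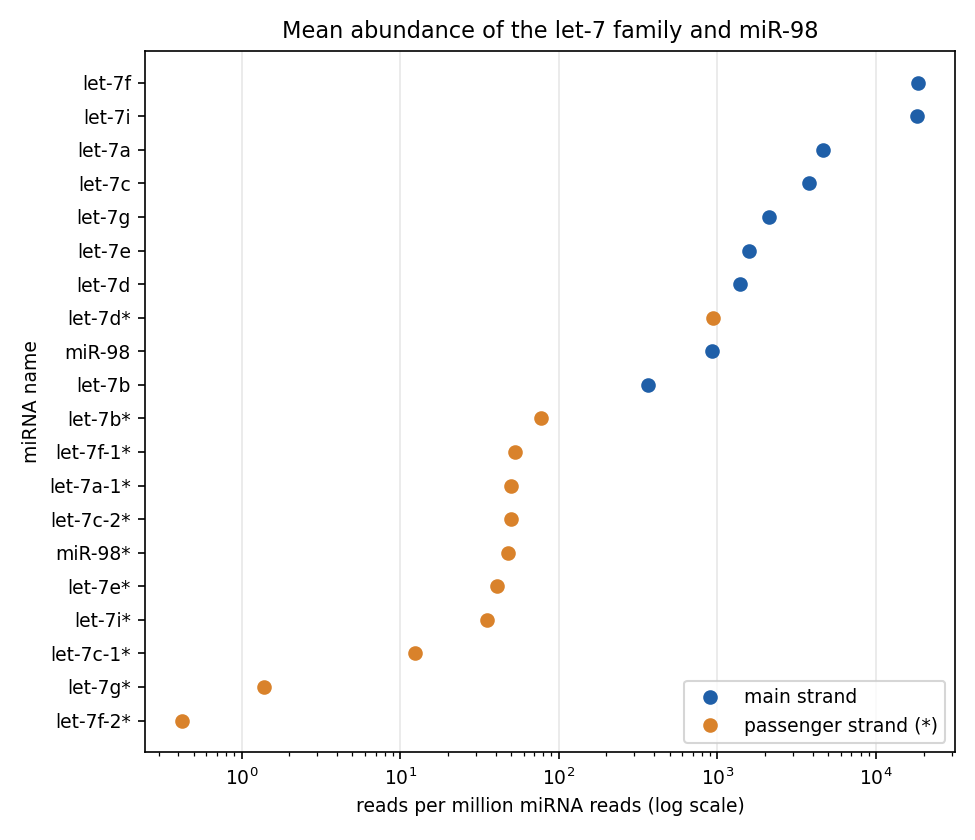
Mean abundance of 20 members in RPM on a log scale, with blue points for main strands and orange points for passenger strands, 1 authors' mean per point and no error. The main strands ran from 368 to 18423, and let-7d* was the only passenger strand within that range.

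The passenger strands are shown because they differ among the copies of a member, where the main strands do not. Apart from miscalled bases and 1 exception given below, they thus name the hairpin a read came from. They are RefSeq mature sequences, again 5′ to 3′ in order of abundance with bases 2 to 8 in capitals.
let-7d*: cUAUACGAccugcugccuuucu
let-7b*: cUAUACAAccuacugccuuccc
let-7f-1*: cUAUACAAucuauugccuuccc
let-7a-1*: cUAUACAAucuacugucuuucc
let-7c-2*: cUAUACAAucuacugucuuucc
miR-98*: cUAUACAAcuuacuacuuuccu
let-7e*: cUAUACGGccuccuagcuuucc
let-7i*: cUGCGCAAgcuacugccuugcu
let-7c-1*: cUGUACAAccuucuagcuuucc
let-7g*: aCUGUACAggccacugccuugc
let-7f-2*: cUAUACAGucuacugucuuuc
let-7a-2*: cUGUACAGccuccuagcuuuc

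Bases 2 to 8 of the passenger strands fell into 8 kinds, where the main strands had 1. The most common was UAUACAA, found in 5 of the 12 names: let-7a-1*, let-7b*, let-7c-2*, let-7f-1* and miR-98*. Each of the other 7 names had bases of its own there, and let-7g* began 1 base earlier on the duplex, with A. let-7a-1* and let-7c-2* had the same 22 bases, and their abundance in the table was identical too, at 50.0 RPM. This value is therefore no separate measurement of the let-7a-1 and let-7c-2 hairpins.

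One passenger strand stood above all the others. let-7d* was at 944 RPM, which was 71.9% of the family's passenger reads and 12.2-fold above the next, let-7b*, at 77.1. It was the most abundant of the 211 names with an asterisk in the table, 1.11-fold above miR-24-2*. miRNAs listed as 5p and 3p carry no asterisk and were not ranked here. Some of their lower arms were more abundant, such as miR-151-5p at 3118 RPM. let-7d* lay 1.02-fold above the main strand miR-98 and 2.56-fold above the main strand let-7b. Its own main strand, let-7d, was at 1395 RPM, so that the strands of this hairpin differed by 1.48-fold.

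The passenger strands let-7f-1*, let-7a-1*, let-7c-2*, miR-98*, let-7e* and let-7i* lay close together, from 52.9 RPM for let-7f-1* to 35.4 for let-7i*. Below them were let-7c-1* at 12.4, let-7g* at 1.39 and let-7f-2* at 0.422. let-7a-2* was listed at a log2 abundance of -35.64, among 25 names whose values of -36.76 to -35.64 stood apart from the lowest of the others, -24.52. No share was derived for let-7a-2*, and 20 of the 21 members thus had one.

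Where a member has 2 hairpins, the listed passenger levels of the copies were unequal for let-7f and let-7c. let-7f-1* was 125-fold above let-7f-2*. However, let-7f-2* differs by 1 base, over its 21 bases, from let-7a-1* and let-7c-2*, which were 118-fold above it. A single miscalled base can thus add reads to its low level. let-7c-2* was 4.02-fold above let-7c-1*, but the reads of let-7c-2* cannot be told from those of let-7a-1*. For let-7a, the copies could not be compared, since no share was derived for let-7a-2* and let-7a-1* has the same reads as let-7c-2*. The main strands of these members are the same from either copy, so their reads were not divided between hairpins.

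The difference between strands varied widely among the members. On the log2 scale of the authors' mean, the main strand was above the summed passenger strands by 0.56 for let-7d, 2.25 for let-7b, 4.27 for miR-98 and 5.29 for let-7e. The difference was 5.93 for let-7c, 6.53 for let-7a, 8.43 for let-7f, 9.0 for let-7i and 10.58 for let-7g. The values of let-7c and let-7a both rest on the 50.0 RPM listed for let-7c-2* and let-7a-1*, whose reads cannot be told apart. The main strand was thus the more abundant for all 9 members, from 1.48-fold for let-7d to 1529-fold for let-7g. Of the other names, 173 were listed with an asterisked strand beside the main one, and in 16 of these the strand with the asterisk was the more abundant. Among the 54 of them with a main strand at or above the level of let-7b, this was so for 0. The asterisk was taken from the name, and miRNAs listed by arm, with no main strand named, were left out of these counts. The counts therefore describe names with an asterisked strand only. They cannot decide how usual a more abundant main strand was among all miRNAs at the members' levels.

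Listed passenger levels were alike in most members, and main levels were not. In 7 of the 9 members, all but let-7d and let-7g, the summed passenger level lay between 35.4 and 77.1 RPM, a 2.18-fold range. The main strands of these 7 covered a 50.0-fold range from 368 to 18423. The 50.0 RPM listed for both let-7a-1* and let-7c-2* entered let-7a and let-7c alike, and these reads cannot be assigned to either hairpin. Without them, let-7c-1* alone was at 12.4 RPM, outside that range, and let-7a had no passenger strand with a share. The main strands of let-7d and let-7g were at 1395 and 2129 RPM, yet let-7d* was 678-fold above let-7g*. Across the 9 members, the log2 levels of main and passenger strands had Pearson's r = -0.13 and Spearman's rho = -0.30. Across the 173 other names, they had r = 0.51 and rho = 0.50, and across those 54, r = 0.29 and rho = 0.28. These correlations are a description: the strands come from the same libraries, let-7a and let-7c share passenger reads, and members of a family are not independent replicates.

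**Figure D3:**
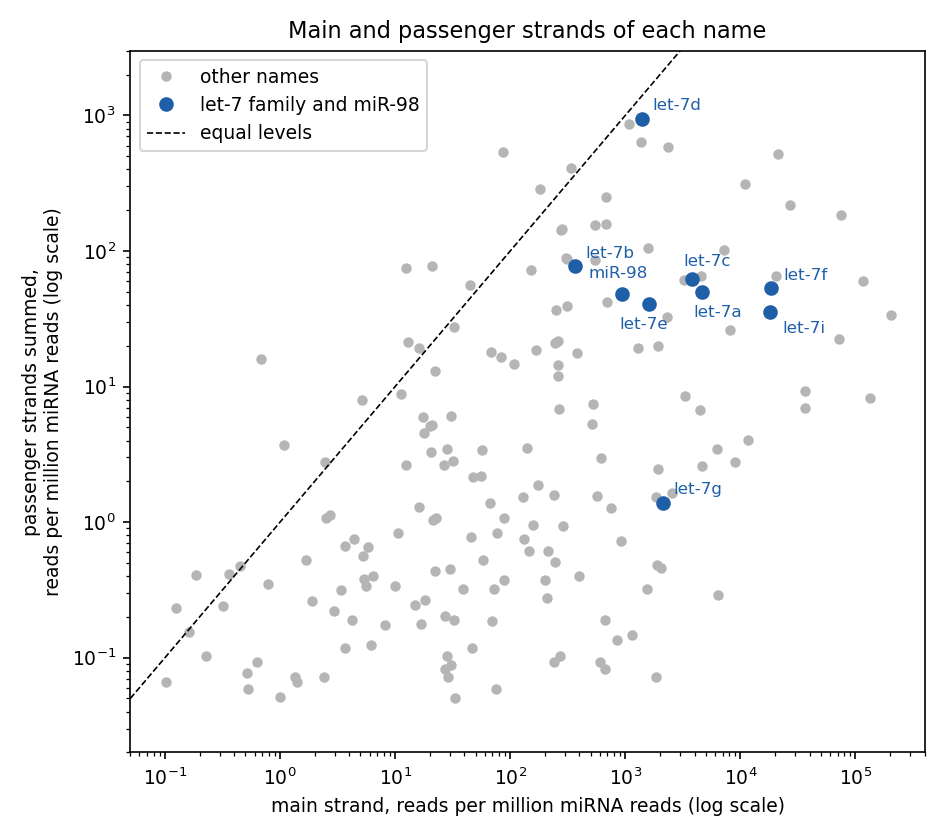
Level of the main strand against the summed level of its passenger strands, both in RPM on log scales, for 9 members in blue and 173 other names in grey, with a dashed line at equal levels. let-7d lay near the line, let-7g lay far below it, and the other 7 members formed a flat band between 35.4 and 77.1 on the vertical axis. The points of let-7a and let-7c both include the 50.0 RPM listed for let-7a-1* and let-7c-2*, whose reads cannot be told apart.

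The median difference between strands was 5.93 for the 9 members and 4.88 for the 173 other names. The 5.93 was the value of let-7c, whose 62.4 RPM of passenger reads include the 50.0 of let-7c-2*, shared with let-7a-1*. The members' median and the counts of members that follow can change with how these reads are assigned, which was not tested. For the 54 other names with a main strand at or above the level of let-7b, the median was 8.93. They were not matched to the members' levels, and some, such as miR-22, lay above every member. Of the 9 members, 7 lay under 8.93, all but let-7i and let-7g. The difference for let-7d was larger than in 1.85% of these 54 names. A further 68 miRNAs were listed by arm, as 5p and 3p with no main strand named, and did not enter these medians. Of these, 12 had an arm at or above the level of let-7b, and their arms differed by a median of 2.23. With the higher arm taken as the main strand, a choice made after seeing the data, the median of the 66 other names was 7.98, and 6 of the 9 members lay under it. Names with a single strand listed could not enter either, and the difference between the groups of names was not tested.

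The hairpins with the smallest and the largest difference between strands are shown with both strands in capitals, the main strand on the left. They are RefSeq hairpins on GRCm38.p6. Mirlet7d lies at chr13:48536012-48536114 on the minus strand, and Mirlet7g at chr9:106178840-106178927 on the plus strand.
Mirlet7d: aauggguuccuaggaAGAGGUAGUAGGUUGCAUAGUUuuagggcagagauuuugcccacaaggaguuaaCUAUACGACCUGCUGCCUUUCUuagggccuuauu
Mirlet7g: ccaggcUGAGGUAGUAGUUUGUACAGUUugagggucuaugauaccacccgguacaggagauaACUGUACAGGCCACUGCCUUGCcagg

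Members whose hairpins lie together in the genome were at unequal levels. On chromosome 13, Mirlet7d, Mirlet7f-1 and Mirlet7a-1 overlap an exon of the lincRNA 6720427I07Rik, with 1714 bases between Mirlet7d and Mirlet7f-1 and 261 between Mirlet7f-1 and Mirlet7a-1. let-7f was 13.2-fold above let-7d, and let-7a was 3.32-fold above let-7d, although part of the let-7f and let-7a reads can come from their other hairpins. Among the passenger strands of this cluster, which belong to single hairpins apart from let-7a-1*, the order was turned: let-7d* was 17.9-fold above let-7f-1* and 18.9-fold above let-7a-1*.

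On chromosome X, Mirlet7f-2 (151912346 to 151912428) and Mir98 (151913214 to 151913321) lie 785 bases apart in an intron of Huwe1, which encodes a ubiquitin ligase. Here miR-98* was at 47.9 and let-7f-2* at 0.422 RPM. The main strands had the opposite order, with let-7f 19.9-fold above miR-98, although part of the let-7f reads can come from Mirlet7f-1. On chromosome 15, Mirlet7c-2 (85706603 to 85706697) and Mirlet7b (85707319 to 85707403) lie 621 bases apart over an exon of the non-coding transcript Lncppara, and let-7c was 10.4-fold above let-7b, although part of the let-7c reads can come from Mirlet7c-1. Their passenger strands had the opposite order, with let-7b* at 77.1 and let-7c-2* at 50.0 RPM, the latter shared with let-7a-1*. Mirlet7g lies in an intron of Wdr82, and Mirlet7i, on chromosome 10 from 122985640 to 122985724, overlaps an exon of the pseudogene D630033A02Rik.

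The remaining hairpins lie within 10 kb of a miRNA outside the family. On chromosome 17, Mirlet7e (17830352 to 17830444) lies in an intron of Spaca6, 94 bases from Mir99b and 367 bases from Mir125a. miR-99b held 11.6% of the miRNA reads and miR-125a-5p held 1.23%, which was 72.9-fold and 7.69-fold above let-7e. On chromosome 16, Mirlet7c-1 (77599657 to 77599750) lies in an intron of Mir99ahg, 656 bases from Mir99a, and miR-99a was at 0.447%, 1.17-fold above let-7c. Part of the let-7c reads can come from Mirlet7c-2. On chromosome 9, Mirlet7a-2 (41536716 to 41536811) lies in introns of the non-coding genes 3110039I08Rik and Gm49317, 5211 bases from Mir100, and miR-100 was at 0.637%, 1.38-fold above let-7a. Part of the let-7a reads can come from Mirlet7a-1, and no share was derived for let-7a-2*. The levels of let-7a and let-7c are thus not those of these single hairpins. All these coordinates belong to GRCm38, and the study's own build is not given in the sources used here.

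**Figure D4:**
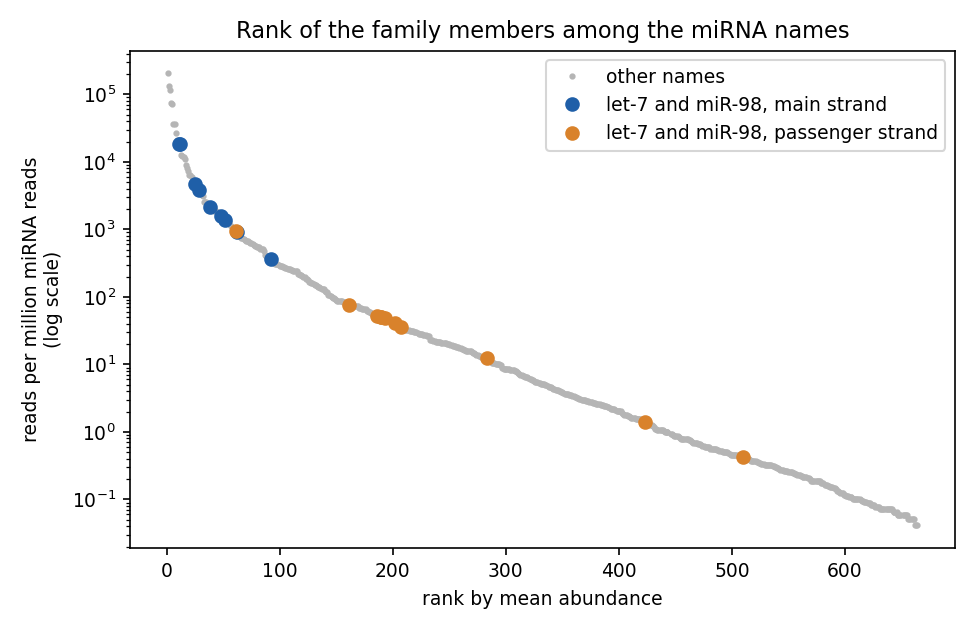
Level in RPM on a log scale against the rank by abundance for the 664 names with a share, with main strands of the family in blue, passenger strands in orange and other names in grey. The main strands lay at ranks 11 to 92, and apart from let-7d* at rank 61 the passenger strands lay at ranks 161 to 510.

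Sorted by bases 2 to 8, the family was among the larger seed groups. A RefSeq mature sequence was found for 554 names, and for a name that can stand for either arm both seeds were counted, so that each of 493 seeds was given the most it could hold. Of these, 8 could hold more than the 5.14% of the let-7 seed, all through miR-22, miR-99 and miR-100, miR-27 or miR-127 names. The same reads could count for both arm seeds, as miR-22 names did for AGCUGCC and GUUCUUC at 20.5% each. The let-7 names were each given a single arm, so the comparison was uneven and the 8 are an upper bound among names with a sequence. The 135 names without a sequence, miR-143 among them, held 19.5% of the reads and were left out. Among the 554 names with a sequence, none outside the family carried the let-7 seed, and the 135 others could not be examined. In RefSeq, 11 of 1679 mature names, or 0.655%, carry it, the members' main strands included. Those that are not members here are let-7k and miR-1961.

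The cell type was looked at through marker miRNAs. All 6 cardiomyocyte miRNAs looked for were listed: miR-1 (as miR-1a), miR-133a, miR-133b, miR-208a, miR-208b and miR-499. The markers of every other cell type looked for were listed too, so being listed does not tell cell types apart. The cardiomyocyte miRNAs summed to 1.51% of the reads, most of it miR-208b at 1.17%. miR-133a held 0.186%, miR-208a 0.0865%, miR-1a 0.0395%, miR-499 0.0214% and miR-133b 0.00106%. The smooth muscle miRNAs miR-143 and miR-145 summed to more, 13.4%, nearly all of it from miR-143 at 13.3%, a miRNA that other mesenchymal cells also express. miR-126 of endothelial cells held 0.477%. The fibroblast miRNAs miR-199a and miR-214 summed to 0.439%. miR-199a-3p and miR-199b had identical values, so this sum can hold reads of miR-199b. Both arms were summed for markers listed by arm, as for miR-199a and miR-126, while asterisked names were left out. The red blood cell, epithelial and leukocyte miRNAs each summed to 0.00839% or less. let-7 members are expressed in many cell types, and how the cells in these cultures shared the let-7 reads was not tested. Fewer cells of a type and less RNA per cell cannot be told apart in such bulk cultures.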

How the data were processed

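Small RNA libraries of EMCMs were sequenced, and the authors trimmed and filtered the reads, kept tags within a size range starting at 18 bases, aligned them to the mouse genome with Bowtie2, summed hits by gene ID and obtained expression levels from edgeR. The submitters' processing notes list Bowtie2 and DESeq. Build, versions and treatment of tags with several hits are not given in the sources used here.

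The table held 5 columns of values. The authors deposited a mean abundance per name on a log2 scale, since 2 to the power of its values sums to 99.5% of the reads and 10 to that power to 0.756%. It was the sole column used. The other 4 hold the authors' own comparison of stretch with static (log2 and signed fold change, P value and FDR) and were not used. No values per sample were used, so depth and spread are unknown and the planned test between groups was not run. Adapter ligation depends on sequence, so levels of different miRNAs are approximate.

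Shares are 2 to the power of the mean. Values under -30 gave no share. Main strands were matched to RefSeq 5p and asterisked names to 3p sequences, for all 21 members, and passenger copies were summed per member. Other names entered the comparison of strands where an asterisked strand was listed. Hosts and neighbours within 10 kb came from GENCODE M21 (GRCm38). All members were named, with neighbouring miRNAs and cell type markers. The members and lists were chosen with earlier results of these data known; the 54 abundant names, the single hairpins shown and the 7 members in a band were chosen after the values were seen. The summing was run on simulated shares, none of them under the limit of -30. This checks the arithmetic only and says nothing about the real shares. Python 3.11.15, numpy 2.4.6, pandas 2.3.3 and matplotlib 3.10.9 were used.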

Additional observations from a re-analysis of the deposited data

How the results depend on the processing

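The family's share of 5.27% was 5.29% when all names were rescaled to 100%, 5.17% for let-7 names alone and 6.63% of the reads without miR-22. It changed by less than the third digit when let-7a-1* and let-7c-2* were counted once. The main strands were 39.2-fold above the passenger strands in sum, 40.7-fold with those names counted once and 39.5-fold with the most abundant passenger copy alone. Rescaling and keeping let-7a-2* at its listed value left this ratio the same to 3 digits. In the order of members, 7 main strands lay above let-7d*, also with passenger copies summed. The 8 seeds that could hold more than let-7 were also 8 with main strands only and with identical names counted once. In each of these settings a name outside the family could still count for both arm seeds. No paired analysis was possible because each miRNA has a single mean over all samples, and for the same reason no fit without a replicate, other normalization or filter was run. The median strand difference of the other abundant names, 8.93, was 7.98 with names listed by arm included, an alternative chosen after seeing the data. The depth behind the rare strands let-7g* and let-7f-2*, and behind let-7a-2*, for which no share was derived, is unknown.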
